A study of Saccharomyces cerevisiae with 12 samples.

Results

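The 57 genes described here encode proteins of the yeast spliceosome. They are a list of systematic names, set by function. It holds the PRP genes, the Sm proteins, proteins of the U1, U2 and tri-snRNP particles and subunits of the Prp19 complex (NTC). The list was drawn up with earlier results of these data known. All 57 were found among the 6612 features quantified. The libraries are RNA-seq of *Saccharomyces cerevisiae* poly(A)+ RNA from cells in mid-log growth, made without the borohydride step that detects dihydrouridine (D). WT is strain BY4741. DUS KO is the strain labelled dus1Δ dus2Δ dus3Δ dus4Δ, deleted by its label for the dihydrouridine synthases that reduce uridine to D; the study obtained it from a cross of double mutants by tetrad dissection. There were 3 libraries of each strain. Nothing in the sources used here says whether they came from separate cultures, so p-values measure only the spread between these libraries, which may be technical.

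The spliceosome removes introns from pre-mRNA. U1 binds the 5′ splice site and U2 the branch site, the tri-snRNP of U4, U6 and U5 then joins, U1 and U4 leave, and the NTC helps to hold the catalytic RNA in place. DExD/H-box ATPases drive the rearrangements, up to the release of the mRNA and the disassembly of the particle that holds the excised lariat. The study asked where D lies in mRNA and what part it might have in splicing, and the comparison here asks how mRNAs for the splicing machinery stood in the DUS KO strain. In bulk RNA, fewer cells that express a gene and less of its RNA per cell cannot be told apart.

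Of the 57 members, 2 are themselves interrupted by an intron, so their mRNAs need the machinery they help to build. SMD2 encodes a subunit of the Sm ring, and MUD1 an RNA-binding protein of the U1 snRNP. Their splice signals are shown because these are the member transcripts that are also substrates. Sequences are from the RefSeq R64 genome, on the plus strand, with the first 6 nt of the intron, the branch site heptamer and the last 3 nt of the intron in capitals.
SMD2 5′ splice site, chrXII:694377-694392: catgtcGTATGTttga
SMD2 branch site, chrXII:694429-694451: tttttataTACTAACttaaaagt
SMD2 3′ splice site, chrXII:694457-694478: atttgtatctttcCAGttcaca
MUD1 5′ splice site, chrII:479340-479355: gtcagcGTATGTatat
MUD1 branch site, chrII:479382-479404: cttctttcTACTAACgttttcat
MUD1 3′ splice site, chrII:479419-479440: tgaccaataaaaaCAGactgta
The intron spans 90 nt in SMD2 (694383 to 694472) and 89 nt in MUD1 (479346 to 479434). Both begin with GTATGT, as do 73.0% of the 281 annotated introns of at least 30 nt in the quantified genes. Both hold TACTAAC on the coding strand, as do 82.6% of those introns. Between the branch site adenosine and the end of the intron lie 30 nt in SMD2 and 39 nt in MUD1. The quantified features have the length of the joined coding exons, 333 nt for SMD2 and 897 nt for MUD1, so splicing of either transcript was not measured.

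Estimated counts summed to 4336794 to 5652837 in WT and 656162 to 5500084 in DUS KO, where replicate 3 was the shallowest. Features at 0 numbered 486, 811 and 274 in the WT libraries and 317, 324 and 868 in the DUS KO libraries. WT replicate 2 was the deepest library, yet it had the most features at 0 in WT. DUS1, DUS2 and DUS4 summed to 1220 counts in WT and to 3 in DUS KO. DUS3 went against the label, with 129, 82 and 112 counts (WT) and 64.1, 52.2 and 6.49 counts (DUS KO). Its reads were divided with YLR400W, which the RefSeq annotation does not hold, and the pair had 154, 94 and 155 counts (WT) and 122, 96 and 22 counts (DUS KO). The paper reports that the genotype of the strain was checked by PCR. By mass spectrometry it found D in mRNA of WT and none in that of DUS KO. Where the DUS3 reads of the DUS KO libraries came from was not tested, and DUS KO stands throughout for the libraries labelled so. The members had few reads. Their median count lay between 36 and 45 in the WT libraries and was 70, 38 and 6 in the DUS KO libraries. In DUS KO replicate 3, 36 of the 57 members had fewer than 10 counts and 7 were at 0.

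No member passed the test. Counts were rounded, scaled with TMM factors to normalised counts (CPM, counts scaled to a common library size) and compared by the quasi-likelihood test of edgeR, with p-values adjusted (Benjamini-Hochberg) over all 5884 features that passed a filter on low counts. MSL1 and SPP381 did not pass the filter, which left 55 members. At an adjusted p under 0.05, 0 of 55 members were called, against 0.085% of all features, and the lowest adjusted p of a member was 0.415. DESeq2 called 0 as well, with no adjusted p for 54 of the 57 members. At an unadjusted p under 0.05, 1 member (SAD1) was higher in DUS KO, against 3.33% of all features, and 0 were lower, against 4.93%. The log2 fold change (DUS KO over WT) was above 0 for 34 members (61.8%, against 48.4% of all features) and below 0 for 21. Its median was 0.14 over the members and -0.02 over all features. Without WT replicate 3 these medians were 0.04 and 0.02. With total-count scaling they were 0.31 and 0.16. In log2(TPM + 1) the members lay slightly below all features, at 0.20 against 0.21.

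The precision of these values was limited. The standard error (SE) of a member's log2 fold change had a median of 0.53 and ran from 0.20 (RDS3) to 1.39 (PRP21). For 10 members the 95% interval lay between -1 and 1: SME1, SMX3, SMX2, RDS3, PRP6, SNU114, CEF1, CLF1, SYF1 and SPP2. For every other tested member the interval reached past one of these bounds.

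**Figure D1:**
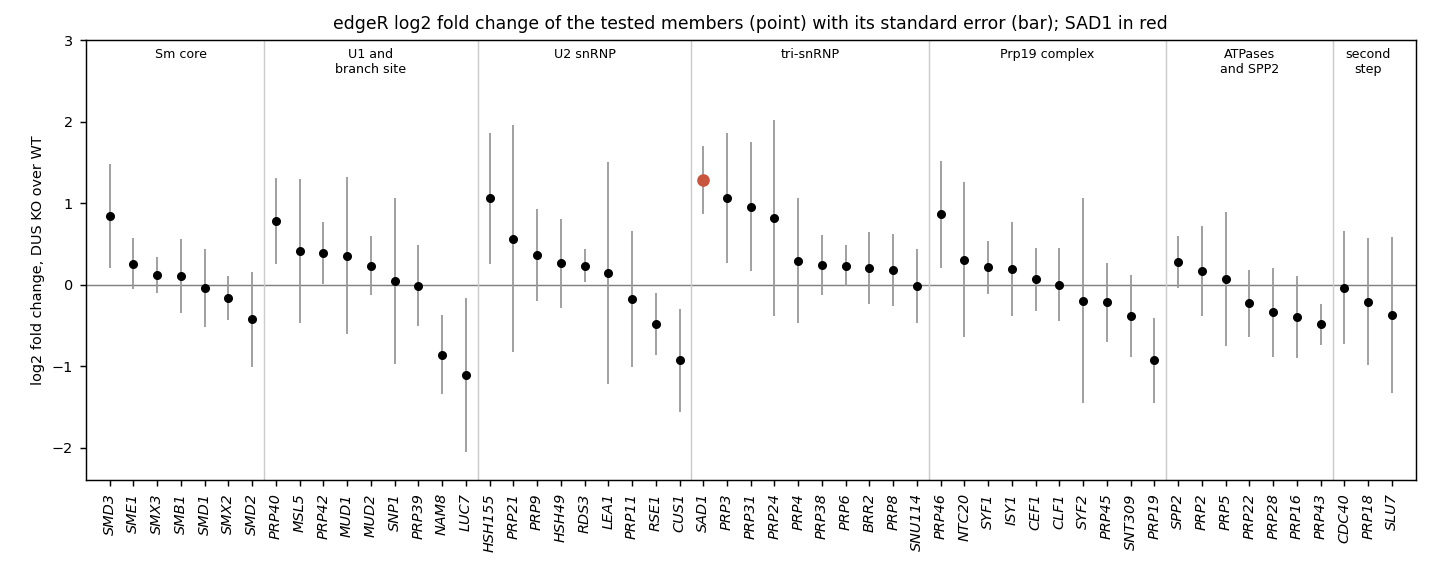
Log2 fold change (DUS KO over WT, 3 libraries each, edgeR) of the 55 tested members, by role group; bars give the standard error. Points run from -1.11 (LUC7) to 1.28 (SAD1, in red, the member with an unadjusted p under 0.05). In the tri-snRNP group, 9 of the 10 points lie above 0.

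Levels of different genes are compared in TPM, which takes length and library total into account. The median member had a mean of 1.96 TPM in WT, below the 3.43 TPM of the median over all 6612 features, and 41 of the 57 members lay below that value. A mean under 2 TPM was found for 29 members and a mean above 10 TPM for 7. The range ran from 0.329 TPM for PRP24 to 123 TPM for SMX2, 374-fold. SMX2, RDS3 and SMX3 together held 62.5% of the summed TPM of the members. These 3 genes have short coding sequences, of 234, 324 and 261 nt. Over all tested features the median WT level was 20.1 TPM in the shortest of 4 bins of length (75 to 642 nt) and 1.46 TPM in the longest (1860 to 14733 nt). Over the members, Spearman's rho between coding length and WT TPM was -0.51 (57 genes, which are not independent replicates). The part of length in these levels was not tested. Length and log2 fold change had a rho of -0.05 over the 55 tested members.

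**Figure D2:**
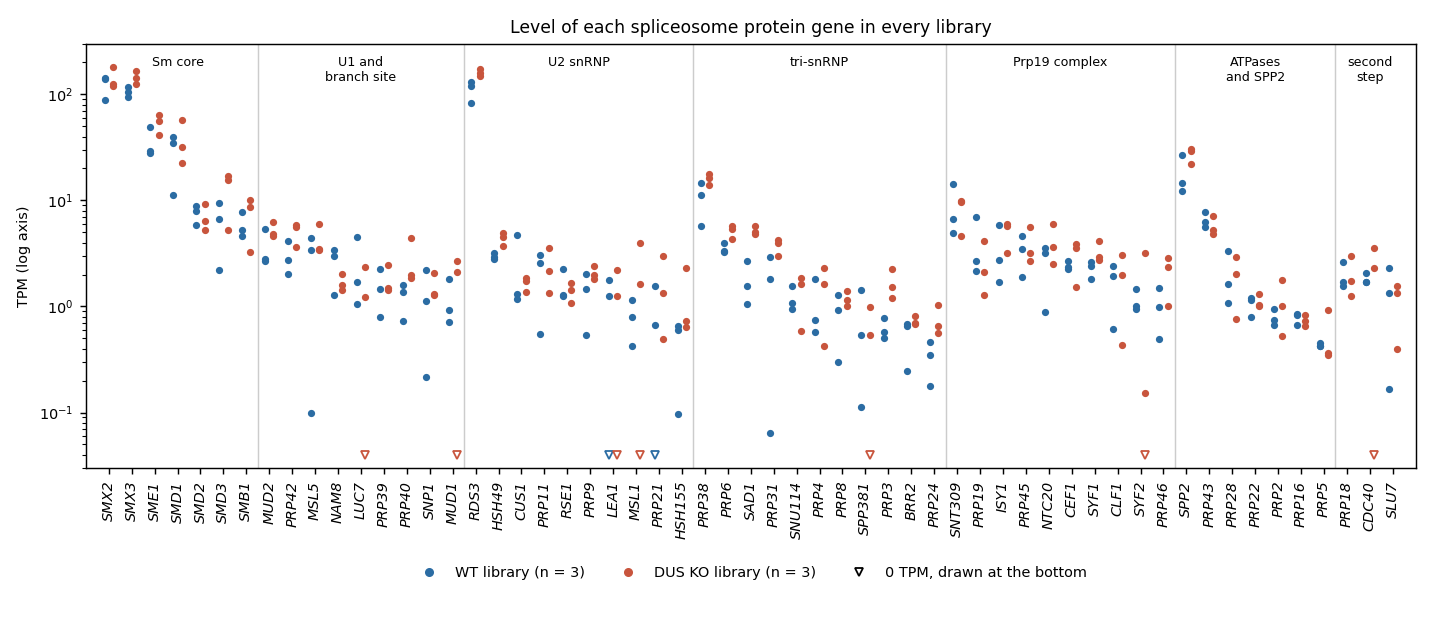
TPM (log axis) of each member in the 3 WT libraries (blue) and the 3 DUS KO libraries (red), by role group; triangles mark libraries at 0. SMX2, SMX3 and RDS3 average above 100 TPM in WT, and 45 members average under 5 TPM.

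**Figure D3:**
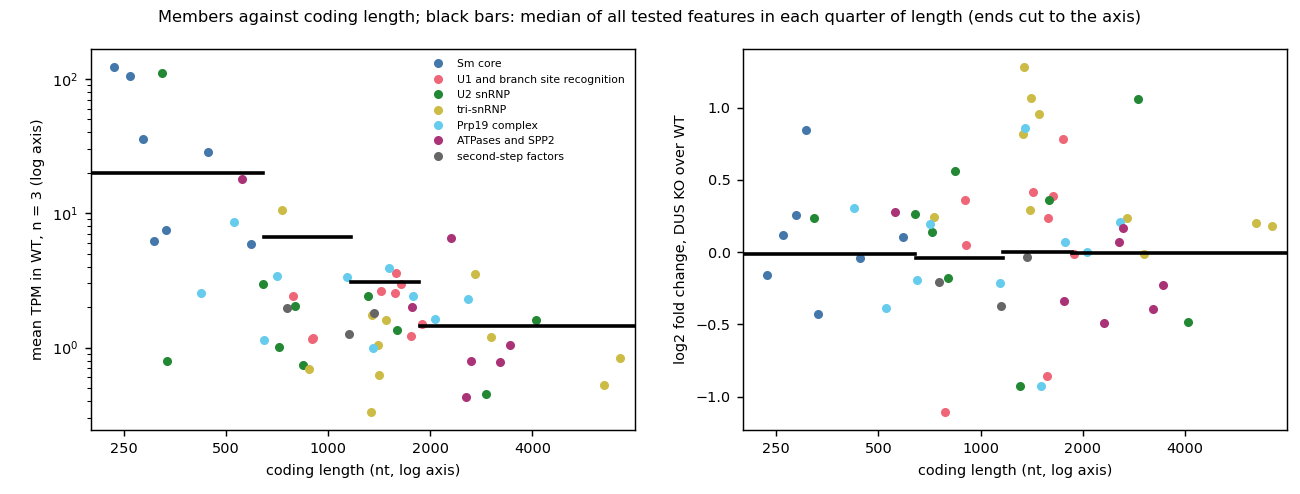
Mean WT level in TPM (left, both axes log) and log2 fold change (right) of the members against coding length in nt, coloured by role group; black bars give the median of all tested features in each of 4 bins of length. The medians step down from 20.1 through 6.64 and 3.07 to 1.46 TPM on the left and stay near 0 on the right.

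The Sm core is a ring of 7 proteins that closes around U1, U2, U4 and U5 snRNA with 1 copy of each protein, yet the levels of their mRNAs were far from equal. In WT the means were 123 ± 29.5 TPM for SMX2 (subunit G), 106 ± 11.2 TPM for SMX3 (subunit F), 35.6 ± 12 TPM for SME1 (subunit E) and 28.5 ± 15 TPM for SMD1 (SD, n = 3). The lower part of the ring held SMD2 at 7.54 ± 1.53 TPM, SMD3 at 6.16 ± 3.70 TPM and SMB1 (subunit B) at 5.85 ± 1.68 TPM (SD, n = 3). Neighbours in this order lay within their SD of each other, except SMX3 with SME1 and SMD1 with SMD2. In DUS KO the same 4 genes led, with 144 ± 20.5 TPM for SMX3 and 141 ± 33.7 TPM for SMX2 (SD, n = 3). None of the 7 was called by edgeR, and their median log2 fold change was 0.11. It ran from -0.01 to 0.45 over 18 alternative settings and was -0.01 without WT replicate 3, or 0.00 when DUS KO replicate 3 was left out.

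For SMX2 (YFL017W-A, chromosome VI, 103699 to 103932), the level was 102, 107 and 59.2 CPM for WT and 66, 73.7 and 107 CPM for DUS KO. WT replicate 3 was the lowest library and the strains overlapped. Its log2 fold change was -0.16 (SE 0.27, edgeR adjusted p = 0.928), and it was above 0 with total-count scaling and in TPM. SMD3 (YLR147C, chromosome XII, 434158 to 434463) had the highest log2 fold change of the ring, 0.84 (SE 0.63, edgeR adjusted p = 0.783). Here values were 6.87, 2.42 and 8.97 CPM (WT) and 11.8, 14.8 and 4.46 CPM (DUS KO), the last from 3 counts, and the strains overlapped. SMD2 (YLR275W, chromosome XII, 694378 to 694800), whose intron is shown above, had the lowest, -0.43 (SE 0.58, edgeR adjusted p = 0.907). For SMD2, WT libraries gave 6.64, 10.7 and 8.30 CPM against 7.74, 5.15 and 5.94 CPM for DUS KO. WT replicate 1 lay inside the range of DUS KO, so the strains overlapped here too.

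SMD1 (YGR074W, chromosome VII, 635712 to 636152) had 241, 329 and 73.6 counts (WT) and 221, 95.1 and 49.6 counts (DUS KO). These were not whole in 5 libraries, where the quantification divided reads between features. With the counts of YGR073C, a feature outside the RefSeq annotation, they added to whole numbers in every library (within 0.02). The pair stood at 76.0, 66.3 and 26.0 CPM for WT and 53.5, 49.9 and 87.6 CPM for DUS KO, with overlapping strains. SMD1 took 82.8% of the pair's counts in WT and 68.8% in DUS KO. SMD1 alone had a log2 fold change of -0.04 (SE 0.48, edgeR adjusted p = 0.99). For the pair it was 0.13 (SE 0.37, edgeR adjusted p = 0.958). The sign thus turned with the way shared reads were counted. The end of SMD1 also overlaps that of PRP38 on the opposite strand by 6 nt (636147 to 636152), in capitals here because the stop codons of both genes lie in them.
SMD1 and PRP38, chrVII:636138-636161, plus strand: agaagaggtCTATGAttcgctgct

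The proteins of the U1 snRNP recognise the 5′ splice site, and MSL5 and MUD2 hold the branch site before U2 does. All 9 of these mRNAs lay under 5 TPM in WT. None was called by edgeR, 6 had a log2 fold change above 0, and the median was 0.23. This median turned to -0.19 without WT replicate 2, was 0.02 without WT replicate 3, and ran from -0.19 to 0.58 over 17 alternative settings. MUD2 (YKL074C, chromosome XI, 294610 to 296193), the counterpart of human U2AF65, had the highest level, with 3.60 ± 1.49 TPM in WT and 5.23 ± 0.941 TPM in DUS KO (SD, n = 3). As normalised counts, the level was 33.7, 19.0 and 15.5 CPM for WT and 29.3, 26.1 and 23.8 CPM for DUS KO, so all DUS KO libraries lay within the WT range. Its log2 fold change was 0.23 (SE 0.36, edgeR adjusted p = 0.914), and 0.02 to 0.63 with 1 library left out, lowest without WT replicate 3 and highest without WT replicate 1.

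PRP40 (YKL012W, chromosome XI, 418310 to 420061), a U1 protein that also contacts the branch site proteins, had the highest log2 fold change of these genes, 0.78 (SE 0.53, edgeR adjusted p = 0.748). For it, values were 11.2, 5.44 and 8.75 CPM (WT) and 9.59, 11.9 and 25.3 CPM (DUS KO). The high library was DUS KO replicate 3, with 17 counts, and without it the log2 fold change was 0.34. LUC7 (YDL087C, chromosome IV, 300214 to 300999), which takes part in the choice of 5′ splice sites, had the lowest, -1.11 (SE 0.94, edgeR adjusted p = 0.812). It had 59, 27 and 13 counts (WT) and 16, 19 and 0 counts (DUS KO), the strains overlapped, and without WT replicate 1 the value was -0.34. Its 0 in DUS KO replicate 3 allows up to 4.46 CPM (3 counts), above WT replicate 3 (2.92 CPM) and below the other WT libraries (13.5 and 5.44 CPM). MUD1 (YBR119W, chromosome II, 479338 to 480323) had 14, 13 and 26 counts (WT) and 32, 25 and 0 counts (DUS KO) and a log2 fold change of 0.36 (SE 0.96, edgeR adjusted p = 0.957). The count of 0 in DUS KO replicate 3 allows up to 4.46 CPM (3 counts of that library), and 2 of the WT libraries lay below this, at 3.21 and 2.62 CPM. The limit lay below the other WT library (5.83 CPM) and the other DUS KO libraries (5.39 and 8.05 CPM). The other U1 and branch site genes had log2 fold changes from -0.86 (NAM8, needed for meiotic splicing) to 0.41 (MSL5, the branch point binding protein).

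MSL1 and LEA1 sit on U2 snRNA itself, and the SF3a and SF3b subunits clamp the branch site. Of the 10 U2 genes 9 were tested, none was called by edgeR, and their median log2 fold change was 0.23. It was 0.10 without WT replicate 2 and -0.13 over the 2 genes with at least 10 counts in every library. Over 18 alternative settings it ran from -0.13 to 0.55, where 0.55 was RDS3 alone, the 1 gene here with a mean TPM of at least 10. RDS3 (YPR094W, chromosome XVI, 720637 to 720960), a small SF3b subunit, stood far above the rest, with 111 ± 25.5 TPM in WT and 160 ± 13.2 TPM in DUS KO (SD, n = 3). The other 9 lay between 0.452 TPM (HSH155) and 2.99 TPM (HSH49) in WT, so mRNAs for subunits of a single particle were up to 245-fold apart. RDS3 was also the member measured most precisely. As normalised counts, WT libraries gave 144, 96.4 and 120 CPM against 141, 149 and 134 CPM for DUS KO, and the strains overlapped. Its log2 fold change was 0.23 (SE 0.20, 95% interval -0.20 to 0.67, edgeR adjusted p = 0.812).

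HSH155 (YMR288W, chromosome XIII, 845571 to 848486), the SF3b scaffold and homolog of human SF3B1, had a log2 fold change of 1.06 (SE 0.80, edgeR adjusted p = 0.783). For this gene the level was 7.10, 1.21 and 7.18 CPM for WT and 5.55, 7.41 and 22.3 CPM for DUS KO. WT replicate 2 was low and DUS KO replicate 3 high, and without the latter the log2 fold change was 0.33. CUS1 (YMR240C, chromosome XIII, 749930 to 751240), another SF3b subunit, had the lowest value of the U2 genes, -0.92 (SE 0.63, edgeR adjusted p = 0.763). Here values were 6.87, 26.2 and 5.61 CPM (WT) and 7.07, 6.12 and 7.43 CPM (DUS KO). WT replicate 2 alone was high, and without it the log2 fold change was 0.12.

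LEA1 (YPL213W, chromosome XVI, 150614 to 151330) had 15, 0 and 20 counts (WT) and 15, 16 and 0 counts (DUS KO), with a 0 in each strain. The 0 in WT replicate 2 allows no more than 0.605 CPM (3 counts), under the 3.44 and 4.49 CPM of the other WT libraries. The 0 in DUS KO replicate 3 allows up to 4.46 CPM (3 counts), between the 2.52 and 5.15 CPM of the other DUS KO libraries. LEA1 had a log2 fold change of 0.14 (SE 1.36, edgeR adjusted p = 0.99). MSL1 (YIR009W, chromosome IX, 374525 to 374860), its neighbour on the snRNA, had 4, 7 and 2 counts (WT) and 20, 5 and 0 counts (DUS KO) and was not tested. PRP21 (YJL203W, chromosome X, 53341 to 54183), of SF3a, had 0, 26.9 and 8.96 counts (WT) and 7, 11.5 and 5.35 counts (DUS KO), shared out with those of YJL202C, which is also outside the annotation. The pair had 19, 31 and 16 counts (WT) and 11, 31 and 9 counts (DUS KO), so the 0 of PRP21 in WT replicate 1 stood beside 19 counts of its partner. PRP21 alone had a log2 fold change of 0.56 (SE 1.39, edgeR adjusted p = 0.953). For the pair it was 0.73 (SE 0.84, edgeR adjusted p = 0.878).

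The tri-snRNP brings U4, U6 and U5 to the intron. The members grouped under it here lay mostly on one side, although none was called by edgeR. Of the 10 tested, 9 had a log2 fold change above 0, against 48.4% of all features, and the median was 0.27. Over the 18 alternative settings this median ran from 0.21 to 0.69. The CPM of the 10 genes summed to 133, 146 and 168 in the WT libraries and to 184, 195 and 208 in the DUS KO libraries, a ratio of means of 1.31, and these sums did not overlap. The TPM of all 11 genes summed to 21.9, 22.7 and 23.3 for WT and 38.8, 35.0 and 39.5 for DUS KO, a ratio of 1.67 on a scale on which the sum over all 57 members had a ratio of 1.33. The genes were grouped with earlier results of these data known, and the group as a whole was not tested. Other proteins of the particle stand in the list of further splicing genes described below, and their edgeR log2 fold changes lay on both sides of 0. Examples are SNU13 (-0.26), DIB1 (-0.33) and LSM3 (-1.15) below 0 and SNU23 (0.68), SNU66 (0.13) and LSM4 (0.69) above it.

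In 4 of 55 members (7.27%, against 7.83% of all features) every DUS KO library lay above every WT library. These were SAD1, PRP3, PRP24 and PRP6, all in the group listed here under the tri-snRNP, which also holds proteins that act in its assembly. SAD1 (YFR005C, chromosome VI, 154527 to 155873), the counterpart of human USP39, is needed for assembly of the particle. For SAD1, WT libraries gave 8.25, 6.05 and 13.0 CPM against 19.9, 22.2 and 25.3 CPM for DUS KO, from 36, 30 and 58 counts (WT) and 118, 69 and 17 counts (DUS KO). Its highest WT library, replicate 3, lay below its lowest DUS KO library, replicate 1. The log2 fold change was 1.28 (SE 0.42, 95% interval 0.38 to 2.19, edgeR unadjusted p = 0.00900, adjusted p = 0.415), and all 3 DUS KO libraries showed the direction. With any 1 library left out it was 1.05 to 1.63, with edgeR adjusted p from 0.181 to 0.975, so the difference did not pass the correction.

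PRP3, a protein of U4/U6, had the next highest log2 fold change of the group, 1.07 (SE 0.80, edgeR adjusted p = 0.783). Here the level was 3.21, 3.02 and 4.04 CPM for WT and 6.23, 5.80 and 10.4 CPM for DUS KO, the last from 7 counts. PRP24, which anneals U6 to U4, was the member of lowest level and had 8, 5 and 10 counts (WT) and 15, 8 and 3 counts (DUS KO). Its log2 fold change was 0.82 (SE 1.20, edgeR adjusted p = 0.910). PRP6, which links U5 with U4/U6, was measured on more reads and lay close to 0, at 0.23 (SE 0.25, 95% interval -0.31 to 0.78, edgeR adjusted p = 0.867). For PRP6, values were 35.7, 38.7 and 39.5 CPM (WT) and 43.3, 40.6 and 52.0 CPM (DUS KO), so that DUS KO replicate 2 stood just above WT replicate 3.

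**Figure D4:**
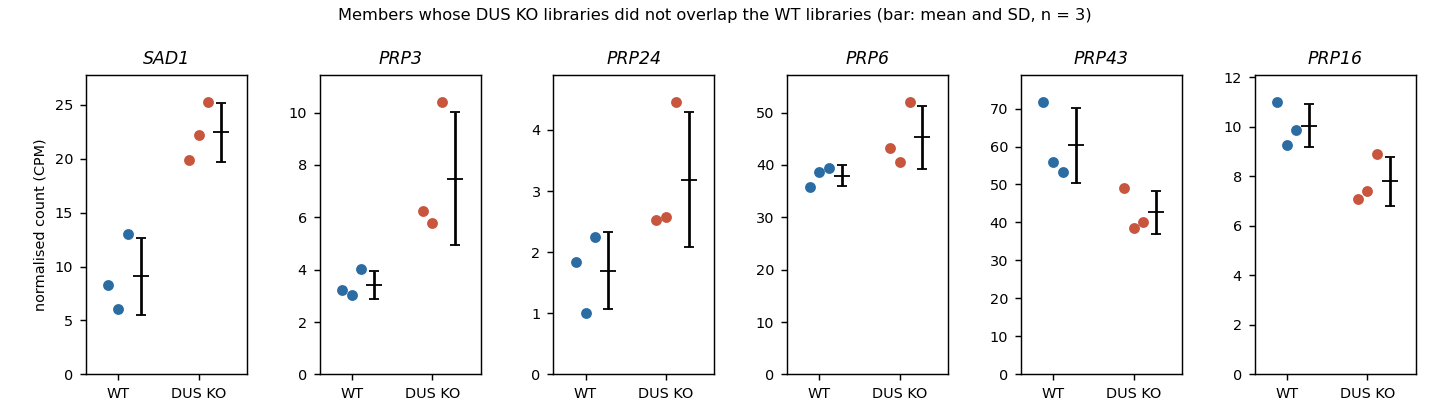
Normalised counts (CPM, axes from 0) in each library for the 6 members whose strains did not overlap, with the mean and SD (n = 3). SAD1, PRP3, PRP24 and PRP6 lie higher in DUS KO and PRP43 and PRP16 lower; SAD1 runs from 6.05 to 13.0 CPM in WT and from 19.9 to 25.3 CPM in DUS KO.

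The large proteins at the centre of the spliceosome lay nearer to 0. PRP8 (YHR165C, chromosome VIII, 429707 to 436948), the scaffold of the catalytic site, is the longest member, with a coding length of 7242 nt. For PRP8, WT libraries gave 8.93, 29.2 and 35.2 CPM against 25.2, 25.8 and 34.2 CPM for DUS KO. WT replicate 1 was low, and the log2 fold change of 0.18 (SE 0.44, edgeR adjusted p = 0.953) was -0.22 without it. The count of PRP8 was not whole in 1 library, with 4 features that could share the reads. SNU114 (YKL173W, chromosome XI, 122517 to 125543), the GTPase of U5, had the lowest value of the group, -0.02 (SE 0.45, edgeR adjusted p = 0.994), and it was above 0 with total-count scaling and in TPM. Its libraries overlapped: the level was 11.7, 14.1 and 17.7 CPM for WT and 14.8, 19.6 and 5.94 CPM for DUS KO. BRR2, the helicase that unwinds U4 from U6, had a log2 fold change of 0.20 (SE 0.44, edgeR adjusted p = 0.947).

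PRP38 (YGR075C, chromosome VII, 636147 to 636875), needed to activate the assembled spliceosome, had the highest level of the group, 10.5 ± 4.50 TPM in WT and 16 ± 1.78 TPM in DUS KO (SD, n = 3). As normalised counts, values were 31.1, 43.4 and 14.6 CPM (WT) and 33.2, 33.5 and 40.1 CPM (DUS KO), so that all DUS KO libraries lay within the WT range. Its log2 fold change was 0.24 (SE 0.37, edgeR adjusted p = 0.914). SPP381 (YBR152W, chromosome II, 546376 to 547251), a partner of PRP38, had 8, 2 and 20 counts (WT) and 8, 9 and 0 counts (DUS KO) and was not tested. PRP4 (YPR178W, chromosome XVI, 892332 to 893729), of U4/U6, had 18, 17 and 41 counts (WT) and 39, 34 and 1.31 counts (DUS KO) and a log2 fold change of 0.29 (SE 0.77, edgeR adjusted p = 0.956). With the reads of YPR177C, which shares its fraction in DUS KO replicate 3, the value was 0.39 (SE 0.72, edgeR adjusted p = 0.938). PRP31, also of U4/U6, had 47, 2 and 71 counts (WT) and 109, 47 and 13 counts (DUS KO), and among members with reads in every WT library its 39.5-fold range over those libraries was the widest.

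The NTC joins as the spliceosome is activated. None of its 10 members was called by edgeR, 6 had a log2 fold change above 0, and the median was 0.03. It ran on both sides of 0, from -0.13 to 0.21 over 17 alternative settings, with -0.02 without WT replicate 2 and 0.15 without WT replicate 1. PRP19 (YLL036C, chromosome XII, 66745 to 68256), the ubiquitin ligase that gives the complex its name, had the lowest value, -0.93 (SE 0.52, edgeR adjusted p = 0.685). For PRP19, WT libraries gave 13.1, 44.6 and 14.8 CPM against 18.2, 10.9 and 5.94 CPM for DUS KO. WT replicate 2 was high, and without it the log2 fold change was -0.12. The estimated counts of PRP19 were not whole in any library. They added to whole numbers with those of YLL037W, a feature outside the annotation, and PRP19 took 77.4% of the pair's counts in WT and 53.8% in DUS KO. The pair stood at 19.0, 50.6 and 24.9 CPM for WT and 27.4, 26.1 and 41.6 CPM for DUS KO. Its log2 fold change was -0.04 (SE 0.39, edgeR adjusted p = 0.99), so the low value of PRP19 was not seen in the reads of both features together.

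**Figure D5:**
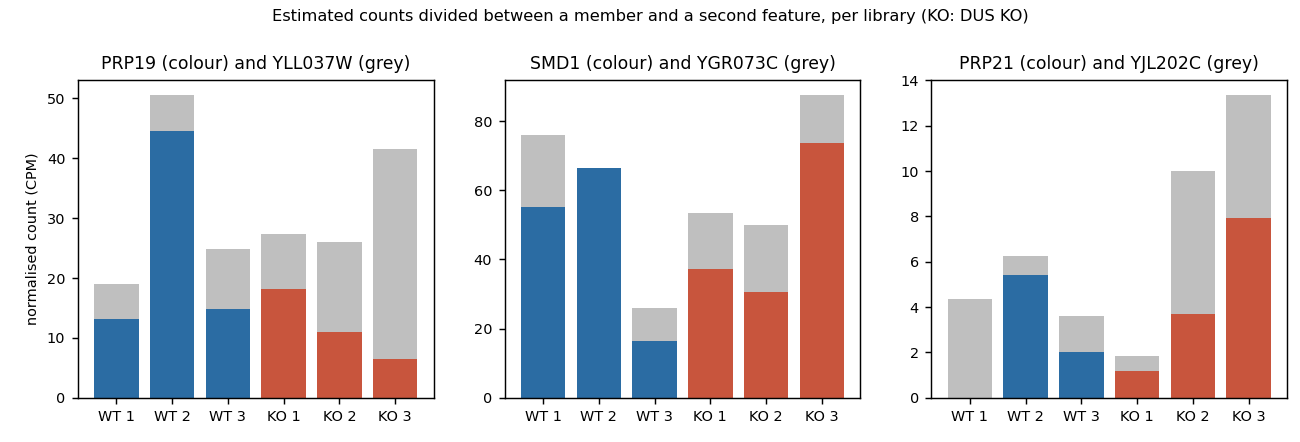
Normalised counts (CPM, from counts that were not rounded) of PRP19, SMD1 and PRP21 (blue WT, red DUS KO) stacked with those of the feature each shares reads with (grey), in each library. For PRP19 the whole bars overlap between the strains, at 19.0 to 50.6 CPM in WT and 26.1 to 41.6 CPM in DUS KO, and the grey part is larger in DUS KO replicates 2 and 3 than the coloured part.

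SNT309 (YPR101W, chromosome XVI, 730492 to 731019), a partner of PRP19, had the highest level of the complex, 8.64 ± 4.99 TPM in WT and 8.03 ± 2.93 TPM in DUS KO (SD, n = 3). As normalised counts, the level was 13.1, 29.6 and 8.75 CPM for WT and 14.0, 16.1 and 7.43 CPM for DUS KO, with WT replicate 2 again high. SNT309 had a log2 fold change of -0.38 (SE 0.50, edgeR adjusted p = 0.901). PRP46 (YPL151C, chromosome XVI, 266180 to 267535), a WD-repeat protein associated with the complex, had the highest, 0.86 (SE 0.65, edgeR adjusted p = 0.783). For PRP46, values were 5.27, 2.82 and 7.40 CPM (WT) and 9.26, 13.2 and 4.46 CPM (DUS KO), with DUS KO replicate 3 resting on 3 counts inside the WT range. SYF2 (YGR129W, chromosome VII, 750400 to 751047) had 10, 19 and 10 counts (WT) and 34, 1 and 0 counts (DUS KO), and a log2 fold change of -0.19 (SE 1.26, edgeR adjusted p = 0.983). DUS KO replicate 1 lay above the WT libraries and replicate 2 below them. The 0 in DUS KO replicate 3 allows up to 4.46 CPM (3 counts), above the WT libraries at 2.29, 3.83 and 2.24 CPM, so that library cannot be placed. The core subunits CEF1, CLF1 and SYF1 lay close to 0, at 0.07 (SE 0.39), 0.00 (SE 0.45) and 0.21 (SE 0.32).

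The ATPases and SPP2, the partner of PRP2, had a median log2 fold change of -0.23, and none of the 7 was called by edgeR. The median ran from -0.41 to 0.65 over 18 alternative settings. The 0.65 was SPP2 alone, because the other genes of this group fell below the 10 TPM required there. Elsewhere the median was highest at 0.10, without WT replicate 2, and it was 0.05 in log2(TPM + 1). Both members whose DUS KO libraries all lay below WT belong here, PRP43 and PRP16 (2 of 55 members, 3.64%, against 7.68% of all features). PRP43 (YGL120C, chromosome VII, 281634 to 283937) takes apart the lariat particle and also works in ribosome assembly. For PRP43, WT libraries gave 71.7, 55.9 and 53.4 CPM against 49.2, 38.6 and 40.1 CPM for DUS KO. The log2 fold change was -0.49 (SE 0.25, 95% interval -1.02 to 0.05, edgeR adjusted p = 0.632), and all 3 DUS KO libraries showed the direction. In TPM the strains overlapped, since the level was 7.70, 5.63 and 6.25 TPM for WT and 7.20, 4.84 and 5.25 TPM for DUS KO. PRP16, which remodels the spliceosome between the catalytic steps, had a log2 fold change of -0.39 (SE 0.50, edgeR adjusted p = 0.900). For PRP16, values were 11, 9.28 and 9.87 CPM (WT) and 7.07, 7.41 and 8.91 CPM (DUS KO), the last from 6 counts. In TPM its strains overlapped as well, at 0.840, 0.665 and 0.822 TPM (WT) and 0.736, 0.660 and 0.829 TPM (DUS KO).

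SPP2 (YOR148C, chromosome XV, 608640 to 609197) had the highest level and the highest log2 fold change of this group. It stood at 17.9 ± 7.78 TPM in WT and 27.3 ± 4.52 TPM in DUS KO (SD, n = 3), while PRP2, the ATPase it assists, stood at 0.789 ± 0.137 TPM in WT (SD, n = 3). As normalised counts, WT libraries gave 55.4, 27.2 and 27.6 CPM against 44.3, 39.3 and 52.0 CPM for DUS KO, so that all DUS KO libraries lay within the WT range. SPP2 had a log2 fold change of 0.28 (SE 0.32, edgeR adjusted p = 0.876), and 0.10 to 0.70 with 1 library left out, lowest without WT replicate 2 and highest without WT replicate 1. PRP5, PRP28 and PRP22, which act from the binding of U2 to the release of the mRNA, had log2 fold changes of 0.07 (SE 0.82), -0.34 (SE 0.54) and -0.23 (SE 0.41).

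The 3 second-step factors lay between 1.27 and 1.96 TPM in WT, and their log2 fold changes were below 0 by less than their standard errors. Their median, -0.21, ran from -0.72 to 0.06 over 16 alternative settings. CDC40 (YDR364C, chromosome IV, 1202843 to 1204210), also known as PRP17, had 40, 49 and 46 counts (WT) and 55, 51 and 0 counts (DUS KO). The 0 in DUS KO replicate 3 allows up to 4.46 CPM (3 counts), under the 9.16 to 10.3 CPM of WT, while the other DUS KO libraries were at 9.26 and 16.4 CPM. The log2 fold change was -0.04 (SE 0.69, edgeR adjusted p = 0.993), and 0.38 without that library. PRP18 (YGR006W, chromosome VII, 506070 to 506825) had 33, 24 and 20 counts (WT) and 22, 23 and 2 counts (DUS KO) and a log2 fold change of -0.21 (SE 0.78, edgeR adjusted p = 0.974). SLU7 (YDR088C, chromosome IV, 618497 to 619645), which works with PRP18 in the choice of the 3′ splice site, had 45, 4 and 25 counts (WT) and 31, 16 and 1 counts (DUS KO) and a log2 fold change of -0.37 (SE 0.95, edgeR adjusted p = 0.954). In both genes the strains overlapped.

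The spread within a strain was wide for many members. Of the 55 tested, 10 (18.2%, against 15.9% of all features) ranged at least 4-fold among the WT libraries, and WT replicate 2 was the library farthest from the others in 8 of them. It was low for PRP31, SLU7, HSH155, PRP11, LEA1, MSL5 (84, 3 and 102 counts) and SNP1 (34, 4 and 16 counts), and high for CUS1. Over all features it was the farthest in 623 of 937. In DUS KO, 9 members (16.4%, against 11.8% of all features) had such a range, and the shallow replicate 3 was the farthest in 8.

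A list of 39 further splicing genes, such as the LSM proteins of U6, the cap-binding proteins and the lariat debranching enzyme, was set beside the members. Of the 36 that passed the filter, 0 were called by edgeR, and their median log2 fold change was -0.09, with 16 above 0 and 20 below. DESeq2, run on all 39, called 1 and gave no adjusted p for most of them. At an edgeR unadjusted p under 0.05, 1 of the 36 was lower and 1 higher in DUS KO, against 4.93% and 3.33% of all features. Every DUS KO library lay above every WT library for 2 of the 36 and below for 3, against 7.83% and 7.68% of all features. LSM3, of the ring that binds the end of U6 snRNA, stood at 78.3, 68.2 and 76.5 CPM for WT and 31.3, 42.5 and 23.8 CPM for DUS KO. Its strains did not overlap, and the log2 fold change was -1.15 (SE 0.26, edgeR unadjusted p = 0.000708, adjusted p = 0.208), with an adjusted p of 0.00913 in DESeq2. DBR1, which opens excised lariats, stood at 12.6, 10.9 and 8.97 CPM for WT and 20.9, 18.4 and 26.7 CPM for DUS KO, a log2 fold change of 0.99 (SE 0.38, edgeR unadjusted p = 0.0224, adjusted p = 0.523).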

How the data were processed

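RNA-seq of both strains was analysed, and the 6 D-seq libraries were not analysed here. For each library the authors deposited an estimated count, not normalized, and a TPM value, normalized for effective length and library total, per coding feature. Their methods give trimming (bbduk), removal of PCR duplicates by molecular identifier and alignment to sacCer3 (bbmap); the program behind the estimated counts was not given in the sources used here. Coordinates and sequences are from RefSeq R64, where all 57 members matched by systematic name.

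Estimated counts were rounded, filtered (filterByExpr), scaled by TMM and compared with edgeR's robust quasi-likelihood test without a replicate block. The standard error is the size of the log2 fold change over the square root of F. The biological coefficient of variation was 37.5%. The fit was tested on simulated data, with changes placed in genes drawn from all filtered features rather than in the members. At an adjusted p under 0.05 (edgeR) it called 12.8% and 12% of genes with a true log2 fold change of -1 and 1. At -2 and 2 it called 56.8% and 81.2%, and 0.127% of genes without a change. Most simulated 2-fold changes were thus missed. Floors of 3 counts per library cover counting error only. Members and lists were chosen with earlier results of these data known. Library values are given for 29 members: in each of 7 role groups the one with the highest WT TPM and those with the highest and lowest log2 fold change, and any with an unadjusted p under 0.05, an intron, counts that are not whole or a library at 0. Members that did not overlap between strains, PRP31, MSL5, SNP1, LSM3 and DBR1 were added after their values were seen. Alternatives were other scalings, filters (10 counts in every library, or none), DESeq2, limma on log2(TPM + 1) and log2(TPM + 0.1), a replicate block, removal of a length trend (loess, span 0.75), leaving out each library and, chosen after seeing the data, summing shared reads. Software was R 4.3.3, edgeR 4.0.16, limma 3.58.1 and DESeq2 1.42.0.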

Additional observations from a re-analysis of the deposited data

How the results depend on the processing

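No member was called in any of the 18 alternatives, with a lowest adjusted p of 0.181. Each of the 55 tested members was fitted in 16 to 18 of these alternatives, depending on the filter. Of the 55, 23 kept their direction wherever they were fitted and 32 turned in at least 1. Of these 32, 15 were among the 27 tested members given with library values and 17 among the rest. The median log2 fold change of the members was 0.55 in the 7 members with a mean TPM of at least 10, and 0.04 to 0.18 with 1 library left out. DESeq2 called 62 of all features and edgeR 5, and of the other splicing genes DESeq2 called 1. Members given with library values turned sign as follows, and the cause was not tested. With total counts, SMD1 was at 0.18, SMX2 0.039, SNU114 0.16, SYF2 0.0079 and CDC40 0.16. In log2(TPM + 1), SMD1 was at 0.44, SMX2 0.20 and SNU114 0.069, with SMD1 and SMX2 the same at a mean TPM of at least 10. In log2(TPM + 0.1), SMD1 was at 0.46, SMX2 0.20, SNU114 0.063, MUD1 -0.45 and SLU7 0.12. SMD1 was at 0.0061 in DESeq2 and 0.13 with shared reads summed. With the replicate block SMD1 was at 0.028, and at 0.0096 with the length trend also removed. The block called 0 members and 3 features. Deviations from the strain mean had correlations of 0.03, -0.04 and -0.07 between libraries of the same number. With 3 libraries per strain these cannot decide whether the numbers pair the libraries. Leaving out 1 library in turn gave SMD1 -0.46 to 0.30, MUD1 -0.26 to 0.78, LEA1 -0.69 to 0.74, PRP21 -0.018 to 1.77, CUS1 -1.28 to 0.12, PRP4 -0.30 to 0.84, PRP8 -0.22 to 0.53, SNU114 -0.36 to 0.24, PRP38 -0.089 to 0.61, SYF2 -3.35 to 0.28, SNT309 -0.69 to 0.29, CDC40 -0.77 to 0.38, PRP18 -0.72 to 0.056 and SLU7 -0.83 to 0.41. Without a turn of sign, it gave SMX2 -0.40 to -0.016, SMD2 -0.64 to -0.22, SMD3 0.50 to 1.23, LUC7 -1.98 to -0.34, PRP40 0.34 to 1.07, MUD2 0.023 to 0.63, HSH155 0.33 to 1.45, RDS3 0.096 to 0.38, PRP19 -1.41 to -0.12, PRP46 0.48 to 1.21, SPP2 0.097 to 0.70, PRP43 -0.62 to -0.35 and SAD1 1.05 to 1.63. The median level of the members in DUS KO was 2.07 TPM and ran from 1.95 to 2.49, the latter without replicate 3. The depth of that replicate, 656162 counts, limits the values of low members in it.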
